A study of Homo sapiens with 8 samples.

Results

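A-498 is an established human kidney cancer cell line, and the measurements described here compared a derived line labelled ANXA4 knockout (KO) that carried ANXA4 sgRNA-2 with a pair of control lines that carried non-targeting sgRNA-1 and non-targeting sgRNA-2. The comparison used 6 of the 8 RNA-seq libraries of the series: 2 replicates of the line labelled KO guide 2, 2 of control line 1 and 2 of control line 2, the last 4 labelled as wild type controls. A second line labelled knockout, with ANXA4 sgRNA-1 and called KO guide 1 here, was used only to show where the KO guide 2 line differed from it. All lines were grown alike, in RPMI medium with serum, for 24 hours without reaching confluence, and no compound was added. Each guide was represented by a single derived line, so guide and line cannot be told apart, and nothing in the labels says that replicates came from separate derivations. The p-values given here therefore measure only the spread between replicate libraries of a line. Genes entered the comparison where at least 2 of the 6 libraries had a normalized read count of 10 or more, which left 13883 of 28395 genes.

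ANXA4 encodes annexin A4, a protein that binds membrane phospholipids when calcium rises and is abundant in epithelia with secretory or absorptive functions. HNF4A encodes a nuclear receptor that drives genes of the liver and of the proximal tubule, the kidney segment from which clear cell kidney cancer is thought to arise. Loss of such epithelial genes together with a gain of collagens, integrins and other matrix genes is the usual pattern of epithelial to mesenchymal transition, and the reverse pattern is described as a more epithelial state.

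The 6 libraries held 15784890 to 20562734 reads, and Pearson's r across genes between the replicates of a line, on log2 values, was 0.978 to 0.987. Mitochondrially encoded genes took 6.40% and 13.8% of the reads in replicates 1 and 2 of the KO guide 2 line, against 4.67% to 9.05% in the control libraries. Defining markers of kidney epithelium were present in every library, with PAX8 at 2987 to 4476 and PAX2 at 243 to 412 normalized counts. The 13 blood markers summed to 16.9 and 17.6 in the KO guide 2 libraries and to 11.03 to 27.0 in the controls, with 6 of the 13 listed at 0 in all 6 libraries. CDH5 and LUM, defining markers of endothelium and of fibroblasts, were at 0 as well. Of the 9 endothelial and 10 fibroblast genes listed, only 1 in each list was at 0 in all 6 libraries. PECAM1 had at most 4 reads in a library and PDGFRB at most 19. The endothelial list summed to 678 and 793 against 996 to 1349, most of it EGFL7, and the fibroblast list to 389.9 and 524 against 558 to 1438, most of it COL1A1. In bulk libraries such as these, fewer cells of a type and less RNA per cell cannot be told apart.

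The targeted gene was examined first, because it checks the label. On chromosome 2, ANXA4 (Entrez 307) gave 3433 and 4142 normalized read counts in the KO guide 2 line, against 2821 and 3614 (control line 1) and 3858 and 6773 (control line 2). The KO guide 2 libraries lay inside the range of the controls, and the difference was -0.10 (SE 0.22, limma adjusted p 0.817). In the KO guide 1 line the counts were 236 and 234, and the KO guide 2 line exceeded them by 3.998 (SE 0.25, limma adjusted p 0.000146). The transcript was thus not lower in this line, and the name "the line labelled KO guide 2", or KO guide 2 line for short, refers to the label only. Protein and edited alleles were not analysed here.

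HNF4A, the transcription factor named as the marker of this line, was higher than in every control. Its counts were 311 and 187 in the KO guide 2 line and 31.3 and 19.8 (control line 1) and 26.7 and 29.5 (control line 2), so every KO guide 2 library stood above every control library. The rise was 3.14 (SE 0.34, limma adjusted p 0.00162) on the log2(value + 1) scale, the scale of every difference given here. It was 3.23 against control line 1 and 3.06 against control line 2. In the KO guide 1 line HNF4A stood at 78.3 and 41.5, between the controls and the KO guide 2 line, and the difference between the lines labelled knockout was 2.06 (SE 0.39, limma adjusted p 0.0205). The gene lies on chromosome 20, where the median difference between those 2 lines was 0.45.

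**Figure D1:**
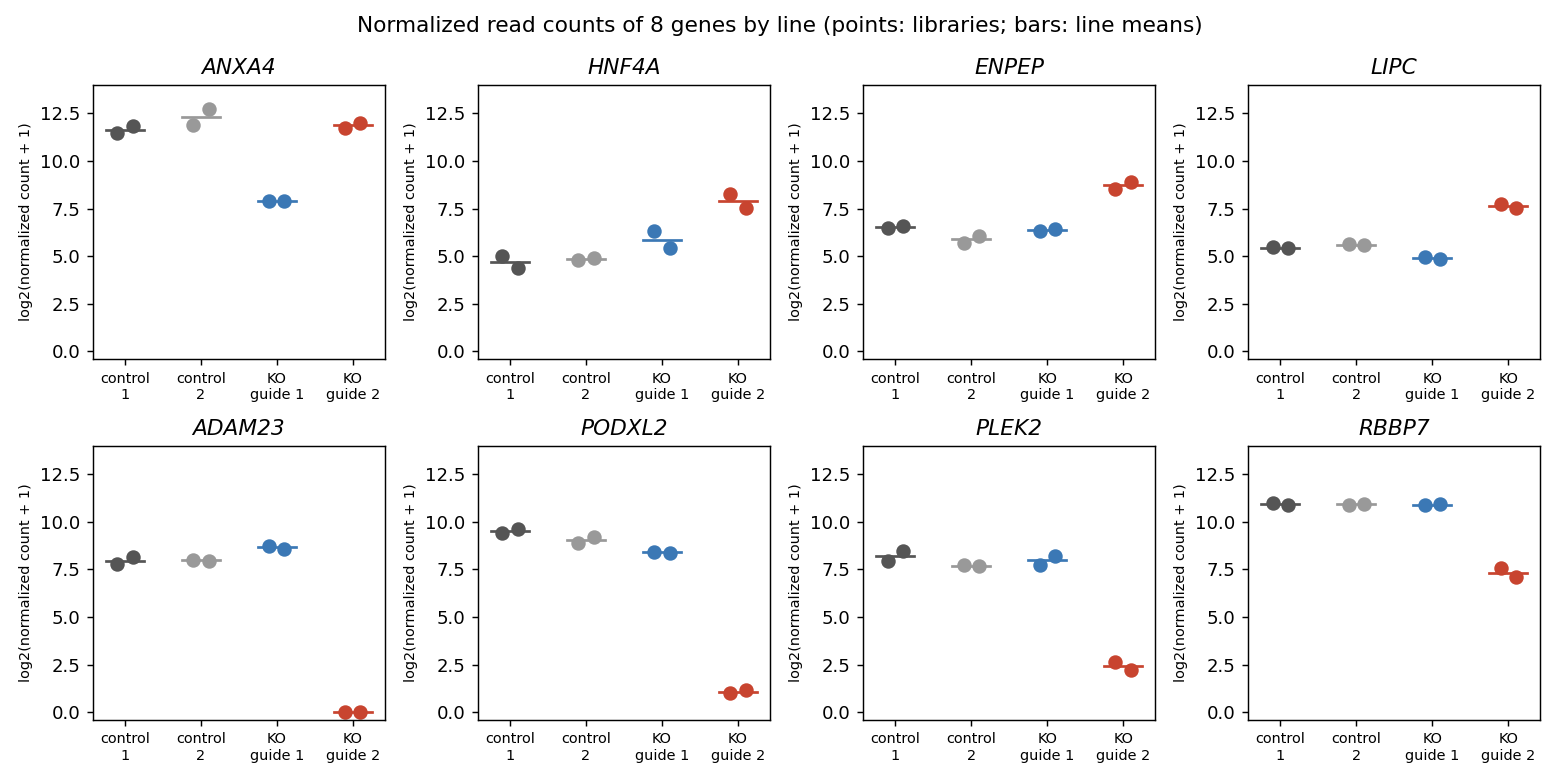
Normalized read counts of 8 genes, as log2(value + 1) on the vertical axis, for the 2 libraries of each of the 4 lines on the horizontal axis, with a bar at the line mean. ANXA4 of the KO guide 2 line lies among the control libraries, HNF4A, ENPEP and LIPC lie above them, and ADAM23 and PODXL2 lie at or near 0 in that line alone.

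The upstream sequences of the gene that marks the line and of the pair with the deepest falls are printed because their promoters differ in base composition. Each run gives the 250 bases before a RefSeq transcript start (GRCh38.p14), 5′ to 3′ on the strand of the gene, with CpG dinucleotides in capitals. HNF4A has starts at 2 places, listed with the upstream window chr20:44355449-44355698 and with chr20:44400989-44401238, both on the plus strand. ADAM23 has chr2:206443282-206443531 and PODXL2 has chr3:127628935-127629184, also on the plus strand.
HNF4A, start 1: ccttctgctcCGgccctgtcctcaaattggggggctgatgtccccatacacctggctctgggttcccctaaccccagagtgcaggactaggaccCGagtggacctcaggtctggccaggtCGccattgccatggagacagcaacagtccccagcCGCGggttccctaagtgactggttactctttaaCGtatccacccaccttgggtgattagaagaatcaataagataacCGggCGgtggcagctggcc
HNF4A, start 2: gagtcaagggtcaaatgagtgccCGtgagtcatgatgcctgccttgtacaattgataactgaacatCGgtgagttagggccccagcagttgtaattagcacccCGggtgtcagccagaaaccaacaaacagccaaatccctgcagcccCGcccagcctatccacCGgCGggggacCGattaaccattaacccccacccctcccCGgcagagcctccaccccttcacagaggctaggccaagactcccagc
ADAM23: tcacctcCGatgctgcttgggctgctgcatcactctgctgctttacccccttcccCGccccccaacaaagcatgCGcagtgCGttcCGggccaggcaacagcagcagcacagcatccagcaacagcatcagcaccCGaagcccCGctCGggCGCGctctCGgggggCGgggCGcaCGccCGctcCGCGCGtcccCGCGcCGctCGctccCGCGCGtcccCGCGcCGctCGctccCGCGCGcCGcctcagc
PODXL2: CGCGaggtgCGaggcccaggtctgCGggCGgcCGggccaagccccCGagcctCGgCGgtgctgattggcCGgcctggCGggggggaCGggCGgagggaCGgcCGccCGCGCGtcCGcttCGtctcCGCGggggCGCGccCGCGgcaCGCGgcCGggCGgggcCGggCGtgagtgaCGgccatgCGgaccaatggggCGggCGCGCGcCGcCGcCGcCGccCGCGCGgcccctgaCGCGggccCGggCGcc

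Each HNF4A window held 8 CpG, and 91.0% of the 10933 tested genes with a listed start had at least as many. ADAM23 held 33, reached by 17.4% of those genes, and PODXL2 held 49, reached by 0.402%. Counts per gene do not tell which HNF4A start was used. The HNF4 motif CAAAGTCCA was then searched on both strands of the 250 bases. It was found at 39 of the 10933 genes (0.357%), at 4 of 429 genes called higher in the KO guide 2 line (0.932%) and at 2 of 775 called lower (0.258%). The 4 were GPR35, MIR100HG, MISP and SLCO2B1, and none of the HNF4A, ENPEP, ADAM23 and PODXL2 windows held the motif. A match describes letters in this window and not binding.

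Over all genes, the KO guide 2 line differed from both control lines at 1561 of 13883 (11.2%), of which 627 were higher (4.52%) and 934 lower (6.73%). A gene was called where limma's Benjamini-Hochberg adjusted p was under 0.05 and the mean of the KO guide 2 line lay on the same side of both control line means, a rule that removed 17 genes. Of the called genes, 565 changed at least 2-fold, 232 higher and 333 lower. The stricter demand of an adjusted p under 0.05 against each control line alone was met by 479 genes (3.45%), 140 higher (1.01%) and 339 lower (2.44%). In 4118 genes (29.7%) both KO guide 2 libraries lay beyond all 4 control libraries, 1925 above (13.9%) and 2193 below (15.8%), and 1500 of the 1561 called genes were among them. The control lines differed from each other at 300 genes (2.16%) in the same fit, 149 higher (1.07%) and 151 lower (1.09%) in control line 2.

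The number of calls moved with the treatment of the replicates. Replicate numbers were taken to pair the libraries, and a fit that blocked on them called 3769 genes (27.1%). Of these, 1706 were higher (12.3%) and 2063 lower (14.9%), and they included all 1561. Leaving out replicate 1 or 2 of the KO guide 2 line gave 956 and 1013, and leaving out replicate 1 or 2 of control line 1 gave 811 and 813. With 1 mean per line entering as the replicate, only ADAM23, PODXL2 and RBBP7 were called, while 1709 genes had an unadjusted p under 0.05.

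**Figure D2:**
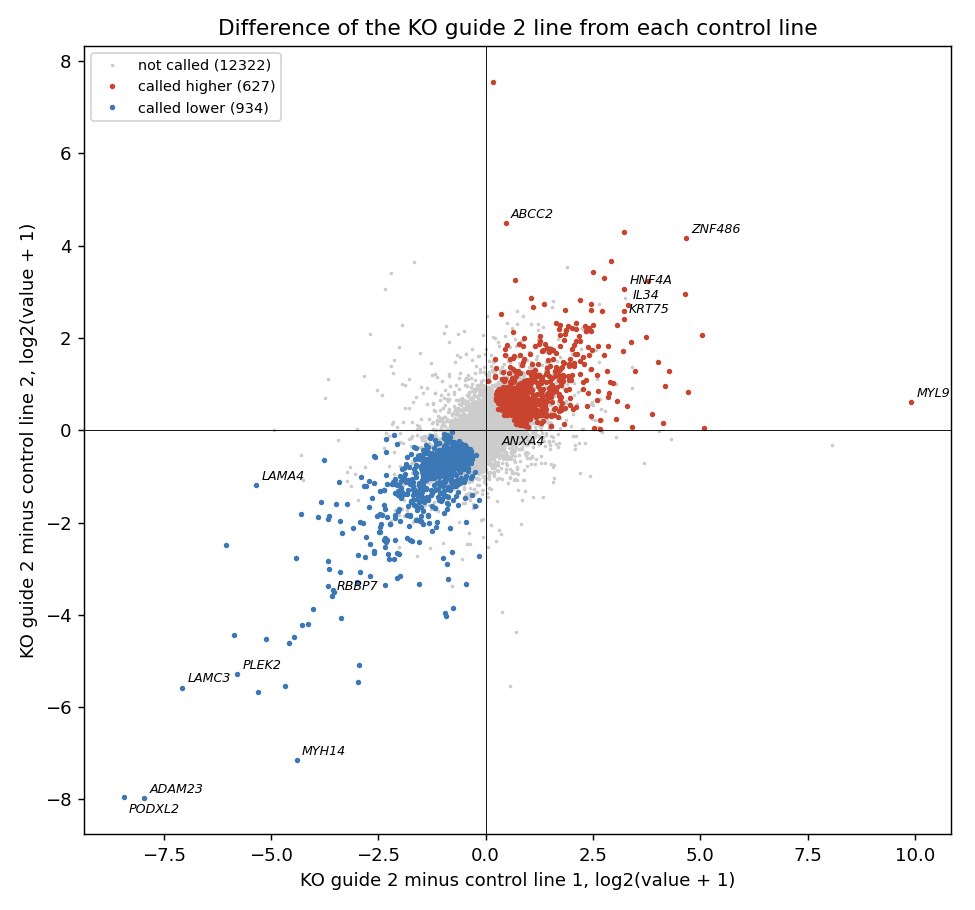
Difference of the KO guide 2 line from control line 1 (horizontal axis) and from control line 2 (vertical axis), in log2(value + 1), for the 13883 tested genes, coloured by call. ADAM23 and PODXL2 lie far down the diagonal, ANXA4 lies at the centre, and MYL9 and ABCC2 differ from a single control line far more than from the other.

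The lower calls were concentrated on 3 chromosomes. Chromosomes 2, 3 and 9 held 16.7% of the tested genes and 551 of the 934 lower calls (59.0%). On chromosome 9 the median difference of 589 tested genes was -0.39, with 132 lower and 10 higher, and it was nearly equal against control line 1 (-0.40) and control line 2 (-0.41). Chromosome 2 had a median of -0.30 over the 800 genes up to about 210 Mb, with 146 lower, and of 0.07 over the 150 genes beyond. Chromosome 3 had a median of -0.75 over the 400 genes from about 97.8 Mb to its end, where 227 were lower (56.8%), with -0.92 against control line 1 and -0.59 against control line 2. Before that point the median of 375 genes was -0.52 against control line 1 and 0.03 against control line 2. Among 542 groups of at least 20 neighbouring tested genes, 82 had a median under -0.2, and 79 of these lay on chromosomes 2, 3 and 9. These stretches were read from the same values, and no test was made of them.

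Higher calls were gathered as well. The 175 tested genes of chromosome 8 up to about 53.8 Mb had a median of 0.53 and 68 higher calls (38.9%), with 0.82 against control line 1 and 0.26 against control line 2. A stretch of 75 genes on chromosome 1, from about 48.3 to 67.8 Mb, had a median of 0.41 with 20 higher and 0 lower. Chromosome 16 had 69 higher of 638 and a median of 0.25, which was 0.05 against control line 1 and 0.43 against control line 2. Against the mean of the control lines, the KO guide 1 line was shifted the same way on some of these stretches. Its medians were -0.24 and -0.20 on the earlier and later parts of chromosome 3, 0.25 on the first part of chromosome 8 and 0.15 on chromosome 16. They were 0.089 on the stretch of chromosome 1, 0.0043 on the lower part of chromosome 2 and 0.0074 on chromosome 9. On the later part of chromosome 8 the KO guide 1 line had 0.29, where the KO guide 2 line had -0.03. The control lines also differed from each other on several stretches. Control line 2 minus control line 1 was -0.53 and -0.34 on the earlier and later parts of chromosome 3. That difference was 0.55 on the first part of chromosome 8 and -0.37 on chromosome 16. Each group count below is therefore given with the count among members outside chromosomes 2, 3, 8, 9 and 16, where 806 of 10427 genes were called (7.73%), 443 higher (4.25%) and 363 lower (3.48%). That set is not free of shifted stretches, since it keeps the stretch of chromosome 1. It also keeps 200 genes of chromosome 15 up to about 63.2 Mb, with a median of 0.28 and 21 higher calls (10.5%). Their median was 0.54 against control line 1 and 0.0095 against control line 2. On chromosome 12 the first groups of 25 neighbouring genes had medians, in order, of 0.20, 0.26, 0.43, 0.53 and 0.39. For the group at 0.53 the median was 0.86 against control line 1 and 0.18 against control line 2. Subtracting the median of the 25 neighbours on each side before the fit left 788 calls, 355 higher and 433 lower, of which 706 were among the 1561. Both of these alternatives were chosen after seeing the data.

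**Figure D3:**
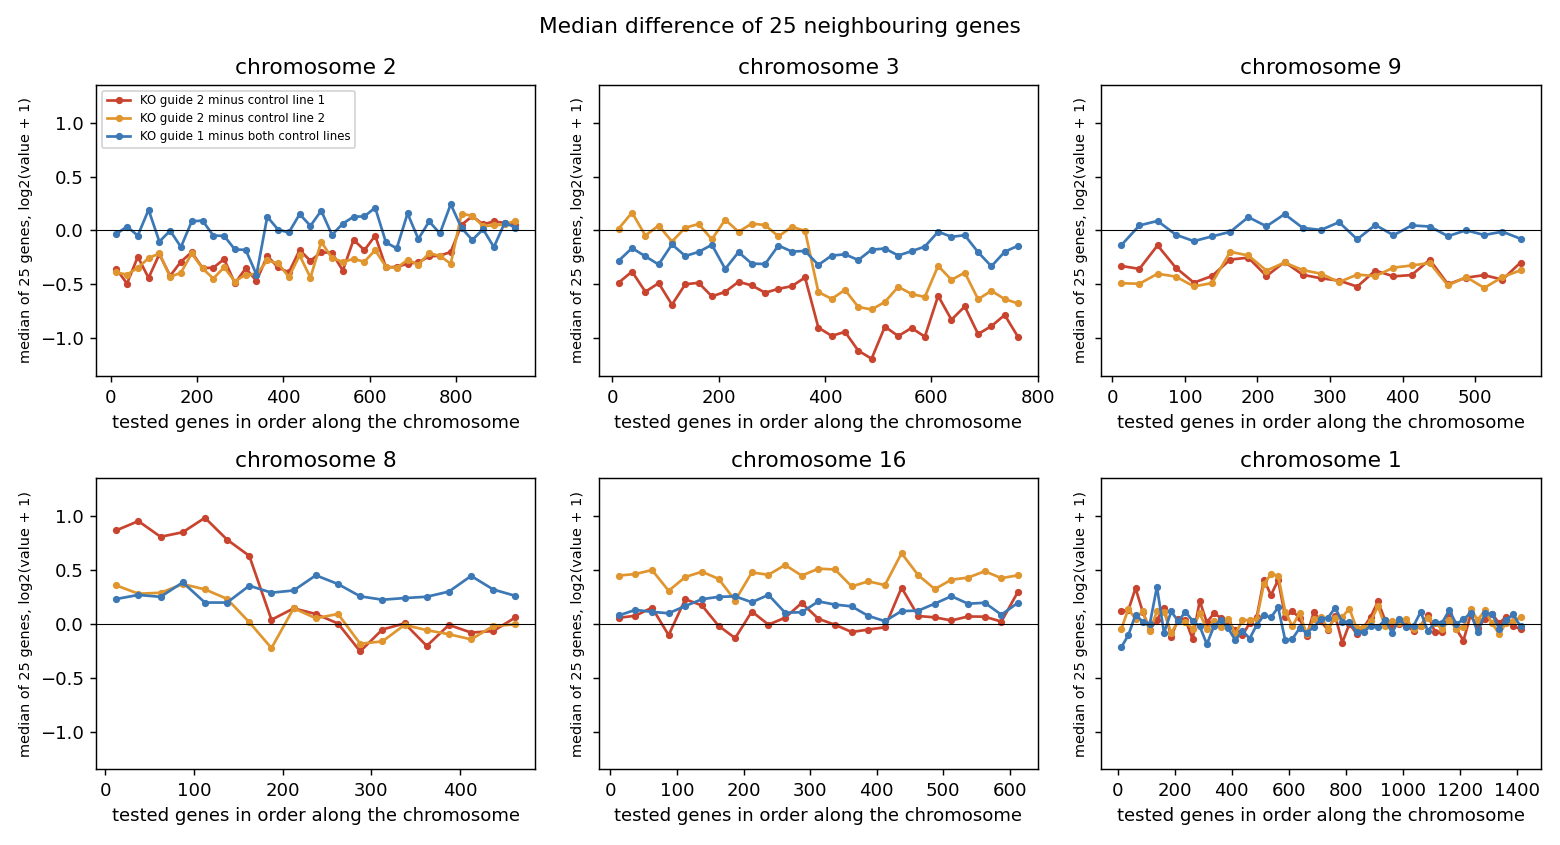
Median difference of successive groups of 25 tested genes, in log2(value + 1), against gene order on 6 chromosomes. The KO guide 2 line lies below both control lines along chromosome 9 and most of chromosome 2. It drops further part of the way along chromosome 3, and rises on the first stretch of chromosome 8. The KO guide 1 line, drawn against the mean of the control lines, stays near 0 on chromosomes 2 and 9. It lies below that mean on chromosome 3 and above it on chromosome 16 and along the whole of chromosome 8.

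Some genes of the renal and hepatic epithelial programme rose in the KO guide 2 line, and most of those tested were not called. Of 16 tested renal epithelial transcription factors, 3 rose and 0 fell, with a median of 0.48, where the median of all tested genes was 0.01. HNF4A, the marker of this line given above, was 1 of the 3 and adds nothing new here. Of the 13 members outside the 5 chromosomes, 2 rose, and with the replicate block 9 of 16 rose and 1 fell. NR1H4, the bile acid receptor FXR, rose from 68.0, 81.1, 102 and 237 in the controls to 293 and 286, a log2 difference of 1.42 (SE 0.30, limma adjusted p 0.0182). MAF, a transcription factor of differentiating tubules, went from 736, 651, 741 and 739 in the controls to 1289.7 and 1096, a log2 difference of 0.73 (SE 0.12, limma adjusted p 0.00761). PAX8 and PAX2, which specify the kidney lineage, were not called, at 0.30 and 0.51 with limma adjusted p of 0.278 and 0.104. They were called with the replicate block, at adjusted p of 0.0333 and 0.0110. CDH6, a cadherin of the proximal tubule, differed by -0.29 (SE 0.32, limma adjusted p 0.618).

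Among 19 tested proximal tubule markers, 5 rose and 1 fell, with a median of 0.56, and 3 of 14 rose and 0 fell outside the 5 chromosomes. Leaving out replicate 1 or replicate 2 of the KO guide 2 line left 3 rises. ENPEP, the brush border enzyme aminopeptidase A that cleaves angiotensin II, had 364 and 485 against 89.2 and 93.6 (control line 1) and 51.6 and 65.7 (control line 2), a rise of 2.51 (SE 0.19, limma adjusted p 0.00031). FBP1, an enzyme of gluconeogenesis whose loss is frequent in clear cell kidney cancer, was near the limit of detection, at 5.52, 3.12, 5.16 and 0 in the controls and reached 50.7 and 44.7, a log2 difference of 3.76 (SE 0.73, limma adjusted p 0.0138). GGT1, a brush border enzyme of glutathione turnover, stood at 209 and 182 against 41.4, 47.8, 48.2 and 52.1 in the controls, a log2 difference of 2.02 (SE 0.19, limma adjusted p 0.000991). CDH16, the kidney cadherin, rose from 29.4, 34.3, 43.9 and 38.5 to 131 and 79.7, a log2 difference of 1.48 (SE 0.26, limma adjusted p 0.00988). The fifth was SLC4A4, the basolateral bicarbonate cotransporter, at 0.69. MME, the brush border peptidase neprilysin, went the other way, from 157, 239.2, 145 and 292 to 21.7 and 65.2, a log2 difference of -2.37 (SE 0.45, limma adjusted p 0.0131), and it lies on chromosome 3.

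Of 13 tested metabolic and secretory genes listed as HNF4A targets, 5 rose and 0 fell, with a median of 0.53, and 3 of 10 rose outside the 5 chromosomes. LIPC, hepatic lipase, had 214 and 182 against 43.2 and 42.6 (control line 1) and 48.2 and 46.5 (control line 2), a rise of 2.108 (SE 0.20, limma adjusted p 0.000956). It was higher than in the KO guide 1 line as well, by 2.71 (SE 0.23, limma adjusted p 0.000863). CYP3A5, a drug-metabolizing cytochrome, rose from 41.4, 56.2, 61.1 and 49.9 in the controls to 107 and 158, a log2 difference of 1.31 (SE 0.26, limma adjusted p 0.0147). CES2, a carboxylesterase, rose from 2582, 2412, 1779 and 1929 in the controls to 3714 and 3823, a log2 difference of 0.81 (SE 0.11, limma adjusted p 0.00334). ALDH1A1, an abundant retinaldehyde dehydrogenase, rose from 17129.7, 16752, 29217 and 26050.3 to 45499 and 38077, a log2 difference of 0.95 (SE 0.21, limma adjusted p 0.0226). ABCC2, an apical export pump, differed by 0.47 from control line 1 and by 4.48 from control line 2, where it stood at 103 and 112. A further 27 genes of this list fell under the filter on low values.

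Epithelial adhesion, tight junction and simple keratin genes gave 10 rises and 0 falls among 28 tested, with a median of 0.60, and 8 of 22 rose outside the 5 chromosomes. The list's median was 0.81 against control line 1 and 0.095 against control line 2, and 3 members were called against each control line alone. Only 3 rose without replicate 1 of the KO guide 2 line, while leaving out its replicate 2 left 6, and replicate 1 or 2 of control line 1 left 5 and 6. ELF3, an epithelial ETS factor, rose from 325, 262, 508 and 441 in the controls to 1816 and 998, a log2 difference of 1.85 (SE 0.24, limma adjusted p 0.00275). SPINT2, an inhibitor of membrane serine proteases, rose from 39.5, 30.2, 36.1 and 20.4 in the controls to 134 and 103, a log2 difference of 1.90 (SE 0.28, limma adjusted p 0.00458). MAL2, a protein of apical transport, differed between the controls, at 81.8 and 84.2 (control line 1) and 333 and 432 (control line 2), and stood above both at 975 and 888, a log2 difference of 2.38 (SE 0.14, limma adjusted p 8.92e-05). CLDN1, a tight junction claudin, rose from 1458, 2278, 2127 and 2247 to 3153 and 3883, a log2 difference of 0.81 (SE 0.19, limma adjusted p 0.0306). The other 6 were CLDN3 at 1.84, the polarity genes PARD6B at 1.03 and LLGL2 at 0.90, and the keratins KRT7, KRT8 and KRT18 at 0.85, 0.64 and 0.66. Against the KO guide 1 line the differences were -0.13 for ELF3, 0.60 for SPINT2, -0.31 for MAL2 and -0.73 for CLDN1, none of them called.

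The 15 largest rises included genes of varied function. ZNF486, a zinc finger gene of chromosome 19, had at most 3 reads in every control library and 51.7 and 71.2 in the KO guide 2 line, at least 20.7-fold higher. It was also expressed in the KO guide 1 line, at 37.6 and 32.2. LINC01320, a long noncoding RNA, rose from 10.1, 11.4, 4.302 and 11.3 in the controls to 70.3 and 86.9, a log2 difference of 3.02 (SE 0.39, limma adjusted p 0.00290). IL34, a ligand of the CSF1 receptor, rose from 16.5, 6.24, 22.4 and 11.3 in the controls to 145 and 84.5, a log2 difference of 3.01 (SE 0.49, limma adjusted p 0.00699). DIRAS2, a small GTPase, rose to 83.8 and 48.3 from 14.7, 5.20, 7.74 and 12.46, a log2 difference of 2.64 (SE 0.46, limma adjusted p 0.00859). Values assigned to SMN2 are uncertain, because its copy SMN1 is nearly identical and reads can fall to either. They went from 19.3, 6.24, 5.16 and 5.66 to 55.8 and 82.1.

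KMO, the kynurenine 3-monooxygenase of tryptophan breakdown, stood at 286 and 264 against 55.2 and 44.7 (control line 1) and 49.04 and 39.7 (control line 2), a rise of 2.53 (SE 0.22, limma adjusted p 0.000608). SPNS2, the exporter of sphingosine 1-phosphate, had 242 and 181 against 41.4 and 41.6 (control line 1) and 37.9 and 48.7 (control line 2), a rise of 2.28 (SE 0.22, limma adjusted p 0.00112). The KO guide 1 line was level with the controls for this gene, at 39.1 and 45.6. RAB42, a RAB GTPase, rose from 34.02, 40.6, 39.6 and 46.5 in the controls to 209 and 197, a log2 difference of 2.32 (SE 0.20, limma adjusted p 0.000487). DSCAML1, a cell adhesion gene, rose to 73.4 and 70.01 from 11.03, 13.5, 8.60 and 11.3 in the controls, and it was as high in the KO guide 1 line at 66.5 and 77.8. AGMO, which cleaves ether lipids, rose from 22.1, 32.2, 28.4 and 32.9 to 138 and 141, and SPNS3, a neighbour of SPNS2 on chromosome 17, rose from 15.6, 16.6, 10.3 and 18.1 to 82.7 and 63.98. ISM1, a secreted protein, rose from 34.02, 75.9, 35.3 and 94.04 to 208 and 327, a log2 difference of 2.25 (SE 0.47, limma adjusted p 0.0178). KRT75 reached 212 and 308 from 16.5, 42.6, 36.1 and 61.2, a log2 difference of 2.81 (SE 0.70, limma adjusted p 0.0345), and was called in 1 of the 6 fits that left out a library.

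The largest falls were near-complete losses of a transcript. ADAM23, a cell surface protein of the ADAM family, had 0 reads in both KO guide 2 libraries against 218 and 281 (control line 1) and 255 and 248 (control line 2), at least 74.5-fold lower. PODXL2, a sialomucin related to podocalyxin, had 1 read in each KO guide 2 library against 674 and 794 (control line 1) and 469 and 583 (control line 2), at least 187-fold lower. LAMC3, a laminin chain, had 0 reads against 120.4 and 147 (control line 1) and 37.9 and 57.8 (control line 2). It was at least 27.0-fold below the mean of the 4 control libraries, and the bound is smaller against control line 2 alone. These 3 genes lie on chromosomes 2, 3 and 9, and their falls were far deeper than the medians of those chromosomes. PLEK2, a membrane-binding protein of the actin cortex, fell from 246, 348, 214 and 201 in the controls to 5.17 and 3.62, a log2 difference of -5.53 (SE 0.23, limma adjusted p 1.05e-05), and lies on chromosome 14. In the KO guide 1 line none of the 4 was at the floor: ADAM23 stood at 421 and 383, PODXL2 at 339.8 and 333, LAMC3 at 64.2 and 42.5 and PLEK2 at 215 and 294.

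RBBP7, a histone-binding subunit of chromatin complexes such as PRC2, was the most abundant transcript among the 15 largest falls. Its counts were 192 and 134 against 2015 and 1867 (control line 1) and 1917 and 1957 (control line 2), a change of -3.59 (SE 0.15, limma adjusted p 1.05e-05). The KO guide 1 line was level with the controls at 1862 and 1930.4, and the KO guide 2 line differed from it by -3.55 (SE 0.17, limma adjusted p 3.67e-05). The gene lies on the X chromosome, whose median over 461 tested genes was -0.02.

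CPVL, a carboxypeptidase, fell from 54.2, 56.2, 55.1 and 94.04 in the controls to at most 1 read, at least 19.3-fold lower, and was low in the KO guide 1 line too, at 3.13 and 1.04. TLR4, the receptor for lipopolysaccharide, fell from 32.2, 42.6, 71.4 and 65.7 in the controls to 0 and 1.21, at least 15.8-fold lower. FGF12, an intracellular FGF homologue, fell from 39.5, 61.4, 47.3 and 54.4 to 1.03 and 1.21, at least 15.1-fold lower. MYH14, a nonmuscle myosin heavy chain, had 0 reads against 22.99 and 17.7 (control line 1) and 149.7 and 133 (control line 2). It was at least 24.0-fold below the mean of the 4 control libraries, and the bound is smaller against control line 1 alone. ST6GAL1, which adds sialic acid to N-glycans, fell from 180.2, 141, 188 and 140.5 to 3.10 and 12.1, a log2 difference of -4.47 (SE 0.41, limma adjusted p 0.00088). NPTX2, a secreted pentraxin, fell from 309.8, 384, 250.4 and 437 to 9.31 and 30.2, a log2 difference of -4.24 (SE 0.42, limma adjusted p 0.00113). ZNF22, a zinc finger gene, fell from 192, 151, 157 and 121 to 19.6 and 12.1, and CDA, the cytidine deaminase that also inactivates gemcitabine, from 85.5, 106, 45.6 and 81.6 to 6.21 and 7.24. LOXL3 and TM4SF18, a lysyl oxidase and a tetraspanin-like membrane protein, fell to levels that the KO guide 1 line shared. LOXL3 stood at 21.7 and 31.4 in the KO guide 2 line, 31.3 and 34.2 in the KO guide 1 line and 219, 211, 292 and 242, while TM4SF18 stood at 4.14 and 9.66, 7.05 and 7.26 and 56.1, 56.2, 233 and 273.

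In all, 32 genes called lower had at most 3 reads in each KO guide 2 library, and 3 genes called higher (ZNF486, ZNF708 and LINC02328) had at most 3 in each control library. Of the 32, 17 lay on chromosomes 2, 3 and 9, and the others on chromosomes 1, 4, 5, 6, 7, 11, 13, 17 and 19. They included CHST1, a keratan sulfate sulfotransferase, at least 12.9-fold lower, CNRIP1, a cannabinoid receptor interacting protein, at least 11.6-fold lower, and AGTR1, the angiotensin II receptor, at least 5.19-fold lower. These were chosen for mention after their values were seen. Among them 27 had a RefSeq promoter window, with a median of 21 CpG against 23 over all tested genes with a window.

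Members of several groups of extracellular matrix genes and their receptors fell, although most members of each group were not called in the fit without the replicate block. With the block, which called 14.9% of all tested genes lower, 11 of 21 collagens, 13 of 23 collagen-modifying enzymes and 12 of 18 integrins fell. The blocked fit gave 1 rise among the collagens, 2 among the enzymes and 0 among the integrins. Of 21 tested collagens, 9 fell and 0 rose, with a median of -0.61. Outside the 5 chromosomes 6 of 13 fell, and 8 fell after removal of gene-order windows. Without replicate 1 of the KO guide 2 line 5 fell, and leaving out replicate 2 of control line 1 left 6. COL12A1, a fibril-associated collagen, fell from 2323, 2873, 2210.3 and 2243 in the controls to 526 and 670.0, a log2 difference of -2.01 (SE 0.14, limma adjusted p 0.000245). COL13A1, a transmembrane collagen, fell from 429, 599, 278 and 343 in the controls to 108 and 156, a log2 difference of -1.61 (SE 0.25, limma adjusted p 0.00621). COL8A1, a network-forming collagen, fell from 2472, 2271, 1404 and 1793 to 636 and 777, a log2 difference of -1.46 (SE 0.25, limma adjusted p 0.00786). COL5A3 fell from 26.7, 75.9, 43.02 and 83.8 to 4.14 and 16.9, a log2 difference of -2.47 (SE 0.59, limma adjusted p 0.0306). The other 5 were COL1A1 at -1.03, the basement membrane chains COL4A1 and COL4A2 at -0.92 and -0.63, COL5A1 at -1.42 and COL6A3 at -1.96.

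Among 37 tested laminins, fibrillins and other matrix glycoproteins, 10 fell and 1 rose, with a median of -0.34. The block on replicate numbers gave 18 falls, and 6 of 30 fell outside the 5 chromosomes. EFEMP1, a fibulin, fell from 986, 1074, 707 and 1033 in the controls to 187 and 299, a log2 difference of -1.98 (SE 0.22, limma adjusted p 0.00183). FBLN1, fibulin 1, fell from 6801, 8989, 9082 and 12959 in the controls to 3484 and 4252, a log2 difference of -1.26 (SE 0.18, limma adjusted p 0.00424). TNC, tenascin C, fell from 6733, 7222, 6450.2 and 6843 to 3452 and 3141, a log2 difference of -1.05 (SE 0.12, limma adjusted p 0.00177). LAMA4, a laminin chain of vessel walls, set the control lines apart, at 1185 and 1203 (control line 1) and 57.6 and 75.9 (control line 2), with 23.8 and 33.8 in the KO guide 2 line. The rise was LAMA3, the alpha chain of an epithelial laminin, from 798, 891, 531 and 826 to 1748 and 1826, a log2 difference of 1.26 (SE 0.18, limma adjusted p 0.00394).

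Enzymes that modify and crosslink collagen gave 9 falls and 0 rises among 23 tested, with a median of -0.50, and 4 of 16 fell outside the 5 chromosomes. The median was -0.74 against control line 1 and -0.27 against control line 2. Leaving out replicate 1 of the KO guide 2 line left 5 falls, and replicate 1 or 2 of control line 1 left 6. COLGALT1, which glycosylates hydroxylysine in collagen, fell from 10858, 9587, 7728 and 6801 in the controls to 4154 and 3702, a log2 difference of -1.13 (SE 0.12, limma adjusted p 0.00162). PCOLCE2, an enhancer of procollagen processing, fell from 2035, 2361, 983 and 1362 in the controls to 433 and 612, a log2 difference of -1.63 (SE 0.18, limma adjusted p 0.00180). LOX, the lysyl oxidase, fell from 1296, 1817, 889 and 1963 to 324 and 802, a log2 difference of -1.48 (SE 0.39, limma adjusted p 0.0443), and was called in 2 of the 6 fits that left out a library.

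Integrins, the receptors that bind these matrix proteins, gave 8 falls and 0 rises among 18 tested subunits, with a median of -0.77. After removal of gene-order windows 8 fell, but 3 of 13 fell outside the 5 chromosomes and 5 of 18 without replicate 1 of the KO guide 2 line. ITGB3, the beta chain of the vitronectin receptor, fell from 7669.8, 8164, 7967 and 6734 in the controls to 2892 and 2332, a log2 difference of -1.55 (SE 0.21, limma adjusted p 0.00341). ITGB5, which also pairs with the alpha V chain, fell from 7095, 7386, 4999.6 and 5015 in the controls to 1947 and 1752, a log2 difference of -1.70 (SE 0.11, limma adjusted p 0.000119). ITGA4 fell from 999, 757, 1056 and 675 to 324 and 297, a log2 difference of -1.46 (SE 0.20, limma adjusted p 0.00334). All 3 were lower than in the KO guide 1 line as well, by differences of -1.10, -1.60 and -0.94 with limma adjusted p of 0.0344, 0.000465 and 0.0448. ITGB2, the beta chain of leukocyte integrins, fell from 137, 186, 135 and 103 to 32.1 and 61.6, a log2 difference of -1.60 (SE 0.29, limma adjusted p 0.0107). The others were ITGA5 at -0.94, ITGA6 at -1.05, ITGAV at -0.60 and ITGB6 at -1.64.

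Of 29 tested mesenchymal and EMT genes, 11 fell and 0 rose, with a median of -0.60. Of 19 outside the 5 chromosomes 6 fell, and 8 fell after removal of gene-order windows. There were 5 falls without replicate 1 of the KO guide 2 line, 6 without replicate 2 of control line 1, and 17 with the replicate block. The list's median was -1.08 against control line 1 and -0.23 against control line 2. SNAI2, the EMT repressor Slug, fell from 461, 472, 252 and 116 in the controls to 75.5 and 77.3, a log2 difference of -1.87 (SE 0.29, limma adjusted p 0.00538). WNT5A, a noncanonical WNT ligand, fell from 969, 1544, 583 and 588 in the controls to 186 and 303, a log2 difference of -1.83 (SE 0.24, limma adjusted p 0.00283), and stood above the KO guide 1 line at 92.4 and 102, by 1.28 (SE 0.27, limma adjusted p 0.0302). This list shares LOX, TNC, ITGA5 and ITGAV with the lists of matrix and integrin genes, so these counts are not separate. Among 33 tested matrix proteases and their inhibitors, 5 fell and 2 rose, and 4 of 24 fell and 2 rose outside the 5 chromosomes. ADAM19, a membrane-bound metalloproteinase, fell from 2449, 3116, 1741 and 1962 to 972 and 1172, a log2 difference of -1.08 (SE 0.21, limma adjusted p 0.0136). The rises were MMP19, from 29.4, 31.2, 61.1 and 36.3 to 101 and 117, and ADAMTS10, from 222, 272, 336 and 539 to 724 and 804. Without replicate 1 of the KO guide 2 line 1 fell and 1 rose, and leaving out replicate 1 or 2 of control line 1 left 3 falls.

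**Figure D4:**
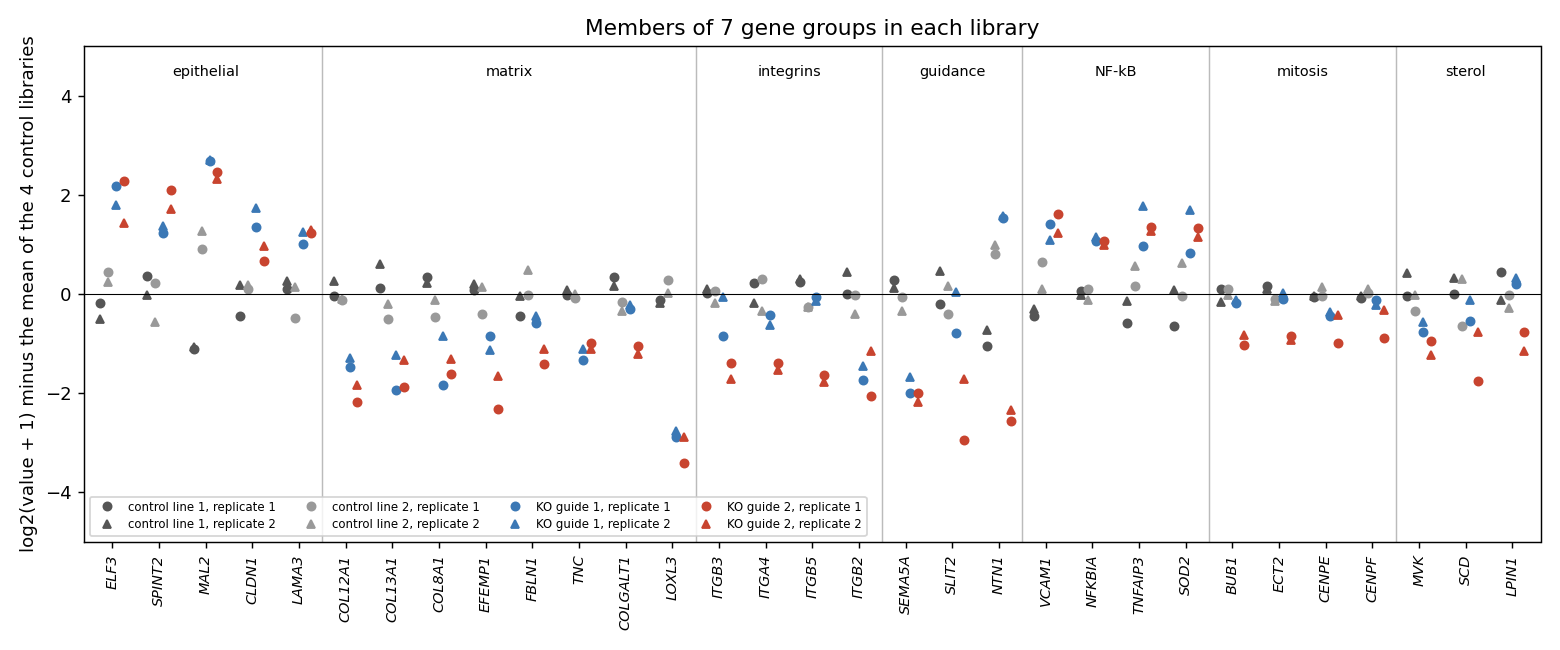
Values of 31 genes from 7 groups in each of the 8 libraries, as log2(value + 1) less the mean of the 4 control libraries on the vertical axis. The genes were picked from those already called, so the shared direction within a group follows from that choice. Both KO guide 2 libraries lie above 0 for the epithelial and NF-kB genes drawn. They lie below 0 for the matrix, integrin, guidance, mitosis and sterol genes drawn. LAMA3, the rise of the matrix glycoprotein list, is drawn as epithelial, and E2F2, the rise of the cell cycle list, is not drawn. Of all tested members, 9 of 28 epithelial and 7 of 30 NF-kB genes had a negative difference, and 10 of 37 matrix glycoproteins a positive one. The KO guide 1 libraries lie close to the KO guide 2 libraries for some genes and close to the controls for others.

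Axon guidance molecules, which steer migrating cells in many tissues, gave 13 falls and 0 rises among 47 tested genes, with a median of -0.33. Removal of gene-order windows left 10 falls, 6 of 34 fell outside the 5 chromosomes, and the replicate block gave 23 falls and 4 rises. SEMA5A, a transmembrane semaphorin, fell from 578, 522, 460.3 and 374 in the controls to 119 and 105, a log2 difference of -2.09 (SE 0.17, limma adjusted p 0.000387). SLIT2, a ligand of ROBO receptors, fell from 213, 339, 187 and 275 in the controls to 31.03 and 74.8, a log2 difference of -2.33 (SE 0.39, limma adjusted p 0.00725). EPHB3, an ephrin receptor, fell from 41.4, 19.8, 30.97 and 27.2 to 4.14 and 3.62, a log2 difference of -2.61 (SE 0.38, limma adjusted p 0.00436). NTN1, netrin 1, fell from 48.7 and 61.4 (control line 1) and 178 and 203 (control line 2) to 16.5 and 19.3, a log2 difference of -2.45 (SE 0.19, limma adjusted p 0.00034), whereas the KO guide 1 line stood at 297 and 304, above all controls. The other falls were SEMA3F, SEMA4B, SEMA4C, SEMA4F, PLXNA1, PLXND1, NRP2, EPHB2 and EPHB6, between -0.68 for SEMA4B and -1.74 for EPHB6.

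Of 43 tested TGF-beta, activin and BMP signalling genes, 8 fell and 1 rose, with a median of -0.36, and 4 of 32 fell outside the 5 chromosomes. The replicate block gave 17 falls, whereas 3 fell without replicate 1 of the KO guide 2 line and 4 without replicate 2 of control line 1. BMP6, a BMP ligand, fell from 104, 101, 117 and 103 in the controls to 29.99 and 28.97, a log2 difference of -1.81 (SE 0.20, limma adjusted p 0.00173). SMAD9, a BMP effector, fell from 408, 303, 169 and 187 in the controls to 99.3 and 105, a log2 difference of -1.28 (SE 0.18, limma adjusted p 0.00359). TGFBR1, the type I TGF-beta receptor, fell from 964, 987, 693 and 687 to 413 and 515, a log2 difference of -0.83 (SE 0.16, limma adjusted p 0.0128). INHBA, a subunit of activin A, stood at 94.1 and 363 against 943 and 1610.0 (control line 1) and 309.7 and 517 (control line 2), so the groups overlapped, a log2 difference of -1.92 (SE 0.49, limma adjusted p 0.0374). The rise was GDF15, a stress-induced ligand, from 2790.4, 3542, 3212 and 2716 to 4544 and 6959, a log2 difference of 0.88 (SE 0.21, limma adjusted p 0.0302).

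Among 29 tested WNT ligands, receptors and targets, 7 fell and 1 rose, with a median of -0.28, and 3 of 20 fell outside the 5 chromosomes. TCF7L1, a nuclear repressor of the pathway, fell from 171, 164, 209 and 154 in the controls to 86.9 and 55.5, a log2 difference of -1.31 (SE 0.22, limma adjusted p 0.00797). FZD8, a WNT receptor, fell from 145, 234, 258 and 497 in the controls to 65.2 and 105, a log2 difference of -1.62 (SE 0.36, limma adjusted p 0.0222). SFRP4, a secreted WNT antagonist, rose from 106, 115, 52.5 and 50.98 to 211 and 173, a log2 difference of 1.32 (SE 0.24, limma adjusted p 0.0106). Of 29 tested YAP and TEAD targets, 2 rose and 2 fell, and 1 of 22 rose and 1 fell outside the 5 chromosomes. CRIM1 fell from 13572, 12640.4, 12109.8 and 9189 to 5149 and 4897 and CCN2 from 922, 992, 943 and 920.0 to 641 and 488, while DOCK5 rose from 840.4, 934, 1247 and 1479 to 2038 and 2362 and GADD45A from 2359, 2154, 1754 and 1625 to 2627 and 2980.5. With the replicate block 7 of the YAP and TEAD targets fell.

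NF-kB subunits and feedback targets gave 10 rises and 0 falls among 30 tested genes, with a median of 0.37. Outside the 5 chromosomes 9 of 23 rose, and 11 rose after removal of gene-order windows. Blocking on replicate numbers gave 16 rises and 2 falls, and leaving out 1 library left 7 to 10 rises. NFKBIA, the inhibitor that NF-kB itself induces, rose from 521 and 494 (control line 1) and 534 and 458 (control line 2) to 1054 and 998, 1.03 (SE 0.12, limma adjusted p 0.00208). TNFAIP3, the feedback enzyme A20, rose from 313, 423, 525 and 687 in the controls to 1190.4 and 1124, a log2 difference of 1.31 (SE 0.23, limma adjusted p 0.00988). VCAM1, an adhesion molecule that binds the ITGA4 integrin, rose from 696, 769, 1482 and 1008 in the controls to 2884 and 2221, a log2 difference of 1.42 (SE 0.19, limma adjusted p 0.00304). SOD2, the mitochondrial superoxide dismutase, rose from 1026, 1695, 1561 and 2488 to 4059 and 3566, a log2 difference of 1.24 (SE 0.29, limma adjusted p 0.0284). The other 6 were the subunits NFKB2 at 0.70 and RELB at 0.81, the inhibitor NFKBIE at 0.90, and TNFAIP8, BIRC3 and TRAF1 at 0.73, 0.88 and 0.83. Against the KO guide 1 line the differences were -0.08 for NFKBIA, -0.07 for TNFAIP3, 0.17 for VCAM1 and -0.03 for SOD2, none called. TLR4, which signals to NF-kB, was among the deepest falls given above.

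Interleukins, chemokines and their receptors went in both directions, with 4 rises and 8 falls among 48 tested and a median of 0.01, and outside the 5 chromosomes 1 of 31 rose and 6 fell. CCL2, a monocyte chemokine, rose from 564, 861, 978 and 2428 in the controls to 2660.0 and 5577, a log2 difference of 1.89 (SE 0.42, limma adjusted p 0.0234). IL7 rose from 86.4, 109, 70.6 and 89.5 in the controls to 139 and 148, a log2 difference of 0.70 (SE 0.19, limma adjusted p 0.0456), and its receptor IL7R fell from 471, 477, 419.9 and 353 to 83.8 and 156, a log2 difference of -1.89 (SE 0.24, limma adjusted p 0.00265). IL1B, at low levels in all lines, fell from 9.19, 14.6, 18.1 and 39.7 to 3.10 and 1.21, a log2 difference of -2.64 (SE 0.46, limma adjusted p 0.00913). IL1RAP, the accessory chain of the IL-1 receptor, fell from 508, 535, 287 and 344 to 103 and 152, a log2 difference of -1.68 (SE 0.24, limma adjusted p 0.00384). LIFR fell from 384, 323, 417 and 308 to 204 and 179.9, a log2 difference of -0.89 (SE 0.17, limma adjusted p 0.0119). CXCR4 overlapped with control line 2, at 849 and 1578 against 186 and 177 (control line 1) and 631 and 1551 (control line 2). Leaving out a library left 1 to 4 rises and 4 to 8 falls, the lowest in both directions without replicate 1 of control line 1.

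Of 25 tested TNF ligands and receptors, 4 rose and 1 fell, with a median of 0.30, and 2 of 18 rose outside the 5 chromosomes. TNFRSF9, the costimulatory receptor 4-1BB and an NF-kB target, rose from 147, 124, 151 and 78.2 in the controls to 485 and 508, a log2 difference of 2.03 (SE 0.25, limma adjusted p 0.00264). TNFRSF11B, the decoy receptor osteoprotegerin, rose from 260.2, 467, 312 and 1176 in the controls to 1751 and 2630.4, a log2 difference of 2.22 (SE 0.50, limma adjusted p 0.0238). Leaving out either KO guide 2 library, or replicate 1 of control line 1, left 1 rise. Interferon-stimulated genes gave 4 rises and 2 falls among 42, with a median of -0.07, and 4 of 35 rose and 0 fell outside the 5 chromosomes. TRIM22 rose from 329, 323, 159 and 106 to 473 and 420.1, a log2 difference of 1.11 (SE 0.19, limma adjusted p 0.00786), and GBP2 from 280.4, 210.1, 309.7 and 238 to 495 and 459, a log2 difference of 0.89 (SE 0.17, limma adjusted p 0.0134). The falls were PARP9 and DTX3L, neighbours on chromosome 3, whose differences turned from -0.63 and -0.80 to 0.25 and 0.08 after removal of gene-order windows. HLA class I antigen presentation gave 2 rises among 15 (PSME1 and PSMB10), and acute phase and complement genes gave 1 rise (C1RL) and 2 falls (CP and C5) among 16. Outside the 5 chromosomes 1 of 12 HLA class I genes and 1 of 11 complement genes rose, and 0 fell. Without replicate 1 of the KO guide 2 line, or either replicate of control line 1, no gene of the acute phase and complement list was called.

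Of 69 tested cell cycle and mitosis genes, 16 fell and 1 rose, with a median of -0.29, and 60 of the 69 had a negative difference. Outside the 5 chromosomes 11 of 55 fell, and the replicate block gave 34 falls and 2 rises. The count was sensitive to single libraries: 3 and 4 fell without replicate 1 or 2 of control line 1, 6 without replicate 2 of control line 2, and 7, 10 and 11 without replicate 1 of the KO guide 2 line, replicate 1 of control line 2 and replicate 2 of the KO guide 2 line. BUB1, a spindle checkpoint kinase, fell from 2169 and 1809.6 (control line 1) and 2164 and 1983 (control line 2) to 997 and 1136, -0.93 (SE 0.12, limma adjusted p 0.00314). ECT2, an activator of RhoA in cytokinesis, fell from 3376, 3223, 2821 and 2734 in the controls to 1674 and 1586, a log2 difference of -0.89 (SE 0.10, limma adjusted p 0.00208). CENPE, a kinetochore motor, fell from 1393, 1398, 1409 and 1591 in the controls to 726 and 1079, a log2 difference of -0.71 (SE 0.16, limma adjusted p 0.0246), and CENPF from 4557, 4680.1, 4892 and 5198 to 2621 and 3836, a log2 difference of -0.61 (SE 0.15, limma adjusted p 0.0374). Other falls included the proliferation marker MKI67 at -0.47, CCNB1 at -0.52, AURKA at -0.62 and MCM2 at -0.73. BUB1, ECT2 and MCM2 lie on chromosomes 2 and 3. The rise was E2F2, from 149, 101, 179.8 and 135 to 273 and 215, a log2 difference of 0.81 (SE 0.21, limma adjusted p 0.0430).

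Of 33 tested p53 targets, 5 rose and 2 fell, with a median of 0.21, and 4 of 26 rose outside the 5 chromosomes. ABCA12, a lipid transporter, rose from 155, 158, 178 and 127 in the controls to 319.6 and 314, a log2 difference of 1.04 (SE 0.17, limma adjusted p 0.00760). SPATA18, a gene of mitochondrial quality control, rose from 218, 175, 149.7 and 116 in the controls to 434 and 281, a log2 difference of 1.12 (SE 0.21, limma adjusted p 0.0120). GDF15 and GADD45A, given above, are shared with other lists. TP53I3 fell from 422, 545, 576 and 612 to 337 and 372, a log2 difference of -0.59 (SE 0.15, limma adjusted p 0.0334), and POLH from 1119, 959, 1014 and 968 to 753 and 762, a log2 difference of -0.42 (SE 0.11, limma adjusted p 0.0494). In the blocked fit 13 rose and 2 fell, and without replicate 1 or 2 of control line 1, or replicate 2 of the KO guide 2 line, 2 rose.

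Cholesterol synthesis and SREBP targets gave 8 falls and 0 rises among 34 tested, with a median of -0.37. Outside the 5 chromosomes 7 of 30 fell, and with the replicate block 17 fell and 1 rose. MVK, mevalonate kinase, fell from 205, 282, 166 and 207 in the controls to 109.6 and 89.3, a log2 difference of -1.09 (SE 0.20, limma adjusted p 0.0110), and SCD, the stearoyl-CoA desaturase, from 7297, 9187, 4689 and 9044 in the controls to 2150.1 and 4279, a log2 difference of -1.27 (SE 0.32, limma adjusted p 0.0374). LPIN1, a phosphatidate phosphatase, fell from 781, 523, 564 and 469 to 335 and 259.5, a log2 difference of -0.96 (SE 0.19, limma adjusted p 0.0149). Other falls were SREBF2, which encodes the transcription factor of the pathway, at -1.003, DHCR7 at -1.01 and FADS2 at -1.25.

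Of 43 tested HIF targets and glycolysis genes, 4 rose and 2 fell, and 2 of 31 rose and 2 fell outside the 5 chromosomes. BNIP3 and BNIP3L, receptors of mitophagy, rose from 1159, 1162, 1329 and 1269 in the controls to 1815 and 1692 and from 493, 514, 685 and 869 in the controls to 1003 and 1162, while HK1, a hexokinase, fell from 4234, 4526, 4429 and 3724 to 2545 and 2156, a log2 difference of -0.85 (SE 0.12, limma adjusted p 0.00440). Of 44 tested unfolded protein response and ATF4 targets, 2 rose and 6 fell, and 2 of 33 rose and 2 fell outside the 5 chromosomes. HSPA5, the chaperone BiP, fell from 23890.2, 25842, 22069 and 21381 to 13131 and 17532, a log2 difference of -0.61 (SE 0.16, limma adjusted p 0.0374), and DNAJB11, its cochaperone, from 2881, 3813, 2180.2 and 2809 to 906 and 1744, a log2 difference of -1.19 (SE 0.26, limma adjusted p 0.0207). DDIT4 rose from 3224, 3165, 1617 and 1699 to 3627 and 3804. With the replicate block 15 members of the unfolded protein response list rose and 9 fell. Of 57 tested lysosome and V-ATPase genes, 1 rose (CLN3) and 6 fell, and 4 of 42 fell outside the 5 chromosomes. The falls included CTSL, from 7148, 7366, 6117 and 6001 to 3274 and 4749, and GAA, from 1675, 1757, 1625 and 2473 to 1169 and 1067. Only 1 lysosome gene fell without replicate 1 of the KO guide 2 line, and likewise without replicate 1 or 2 of control line 1.

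NRF2 antioxidant targets gave 4 rises and 0 falls among 34, with a median of -0.03, and 3 of 27 rose outside the 5 chromosomes. ABCC3, an export pump, rose from 3904, 3784, 4337 and 4342 in the controls to 5528 and 5537, a log2 difference of 0.44 (SE 0.10, limma adjusted p 0.0290). Nuclear genes of oxidative phosphorylation gave 2 rises and 2 falls among 53, and 0 of 37 outside the 5 chromosomes. The rises, NDUFB10 and UQCRC2, lie on chromosome 16, and the falls, NDUFA8 and NDUFB5, on chromosomes 9 and 3. None of the 15 mitochondrially encoded genes was called, with a median of 0.30. That median was -0.29 without replicate 2 of the KO guide 2 line, the library with 13.8% mitochondrial reads.

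Among 31 tested contractile and actin-binding genes, 5 rose and 3 fell, with a median of 0.17, and 5 of 26 rose and 2 fell outside the 5 chromosomes. CNN1, calponin of smooth muscle, rose from 22.99, 20.8, 28.4 and 27.2 in the controls to 87.9 and 71.2, a log2 difference of 1.64 (SE 0.32, limma adjusted p 0.0147), and stood at 2.35 and 1.04 in the KO guide 1 line. ACTA2, smooth muscle actin, rose from 119, 94.6, 108 and 102 in the controls to 293 and 174, a log2 difference of 1.09 (SE 0.23, limma adjusted p 0.0184). MYL9 was at 0.919 and 0 (control line 1) and 862 and 903 (control line 2), so the difference of the KO guide 2 line was 9.92 from control line 1 and 0.60 from control line 2. MYH10, a nonmuscle myosin, fell from 462, 367, 729 and 486 to 252 and 258, a log2 difference of -0.95 (SE 0.18, limma adjusted p 0.0133), MYLK, myosin light chain kinase, from 4150.3, 2997, 2696 and 2033 to 1735 and 1239, a log2 difference of -0.97 (SE 0.22, limma adjusted p 0.0227), and CNN3 from 10220.3, 11501, 8268 and 9625 to 6827 and 7098. Of the 10 other annexins tested, 1 rose and 2 fell, which was also the count among the 9 outside the 5 chromosomes. ANXA3 rose from 2299, 2142, 3455 and 3044 to 3771 and 3713, a log2 difference of 0.48 (SE 0.11, limma adjusted p 0.0238), ANXA6 fell from 4047, 4610.4, 4287 and 4388 to 2892 and 2879, a log2 difference of -0.58 (SE 0.12, limma adjusted p 0.0157), and ANXA10 fell from 171, 190.3, 472 and 913 to 100.3 and 107, a log2 difference of -1.72 (SE 0.27, limma adjusted p 0.00595). No member of the EGF family list (14 tested) or of the immediate early genes (31 tested) was called by limma.

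**Figure D5:**
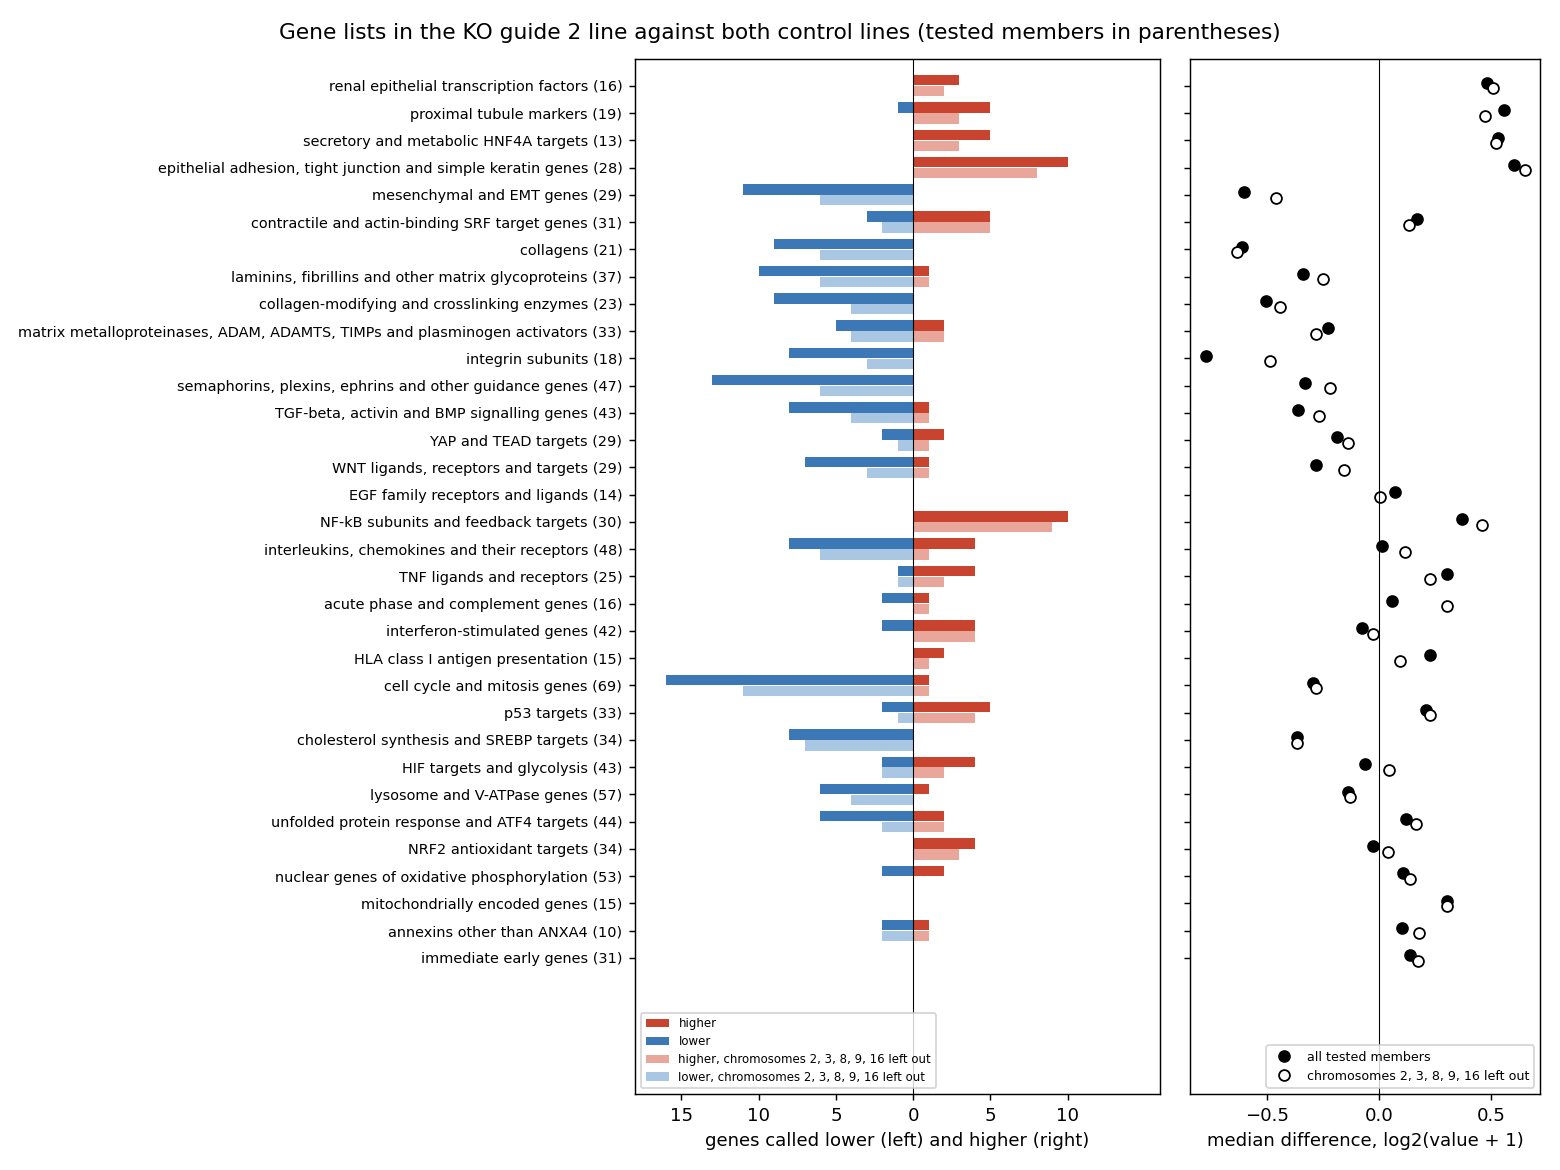
Left, number of members called lower (bars to the left) and higher (bars to the right) in the KO guide 2 line against both control lines for 33 gene lists, over all tested members (dark) and outside chromosomes 2, 3, 8, 9 and 16 (light). Right, median difference in log2(value + 1) of the same members. Matrix, integrin, guidance, cell cycle and sterol lists lie to the left, and renal, epithelial and NF-kB lists to the right, in both sets.

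Other counts also moved with the replicate treatment. The fit that blocked on replicate numbers called 12.3% of all tested genes higher and 14.9% lower. In that fit, the counts of members higher and lower were 10 and 5 of 31 contractile genes and 5 and 13 of 33 matrix proteases. They were 12 and 17 of 48 interleukins and chemokines and 11 and 1 of 25 TNF ligands and receptors. Acute phase and complement genes gave 6 and 6 of 16, and interferon-stimulated genes 8 and 5 of 42. HLA class I presentation gave 4 and 1 of 15, HIF targets 7 and 8 of 43 and lysosome genes 5 and 17 of 57. NRF2 targets gave 8 and 4 of 34, oxidative phosphorylation 10 and 3 of 53 and mitochondrially encoded genes 4 and 0 of 15. The EGF family gave 2 and 2 of 14, and immediate early genes 6 and 1 of 31.

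Leaving out a library moved counts by over 1.5 times, or to or from 0, in the following lists among others. The counts higher and lower without replicate 1 of the KO guide 2 line were 2 and 2 for contractile genes, 1 and 1 for matrix proteases, 1 and 1 for interferon-stimulated genes, 1 and 0 for HLA class I presentation, 0 and 0 for acute phase and complement genes, 3 and 0 for p53 targets, 2 and 2 for unfolded protein response genes, 0 and 1 for lysosome genes, 1 and 0 for NRF2 targets, 1 and 1 for oxidative phosphorylation, 4 and 0 for mitochondrially encoded genes and 0 and 1 for annexins. With replicate 2 of the KO guide 2 line left out they were 4 and 1 for contractile genes, 1 and 2 for YAP and TEAD targets, 2 and 1 for interferon-stimulated genes, 0 and 0 for HLA class I presentation, 0 and 3 for acute phase and complement genes, 2 and 0 for p53 targets, 1 and 4 for unfolded protein response genes, 2 and 6 for lysosome genes, 0 and 1 for oxidative phosphorylation and 0 and 1 for annexins. The counts higher and lower without replicate 1 of control line 1 were 3 and 1 for contractile genes, 2 and 3 for matrix proteases, 1 and 1 for YAP and TEAD targets, 2 and 2 for interferon-stimulated genes, 0 and 0 for HLA class I presentation, 0 and 0 for acute phase and complement genes, 2 and 1 for p53 targets, 2 and 1 for HIF targets, 1 and 3 for unfolded protein response genes, 0 and 1 for lysosome genes, 1 and 0 for NRF2 targets, 0 and 0 for oxidative phosphorylation and 0 and 2 for annexins. With replicate 2 of control line 1 left out they were 1 and 2 for contractile genes, 2 and 3 for matrix proteases, 1 and 1 for YAP and TEAD targets, 2 and 2 for interferon-stimulated genes, 1 and 0 for HLA class I presentation, 0 and 0 for acute phase and complement genes, 2 and 0 for p53 targets, 3 and 1 for HIF targets, 1 and 1 for unfolded protein response genes, 0 and 1 for lysosome genes, 1 and 0 for NRF2 targets, 0 and 1 for oxidative phosphorylation and 0 and 1 for annexins. The counts higher and lower without replicate 1 of control line 2 were 1 and 0 for HLA class I presentation, 0 and 2 for acute phase and complement genes, 6 and 0 for p53 targets, 5 and 4 for unfolded protein response genes, 2 and 4 for lysosome genes, 2 and 0 for NRF2 targets and 1 and 2 for oxidative phosphorylation. With replicate 2 of control line 2 left out they were 2 and 4 for YAP and TEAD targets, 3 and 1 for interferon-stimulated genes, 2 and 1 for acute phase and complement genes, 4 and 0 for p53 targets, 4 and 1 for HIF targets, 1 and 5 for unfolded protein response genes, 0 and 4 for lysosome genes, 2 and 0 for NRF2 targets, 1 and 0 for mitochondrially encoded genes and 0 and 2 for annexins.

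Calls of single genes moved in the same way. Of the genes named above, those called in 3 of the 6 fits that left out a library were NR1H4, ALDH1A1, CNN1, COL5A3, GADD45A, CCN2, TNFRSF11B, CP, BNIP3, CTSL and ANXA6. Those called in 2 of 6 were CLDN1, LOX, GDF15, INHBA, SOD2, CXCR4, E2F2, CENPE, SCD, CLN3, GAA, NDUFB10 and NDUFA8. Those called in 1 of 6 were KRT75, CNN3, IL7, C1RL, C5, PARP9, PSMB10, CENPF, TP53I3, HSPA5, UQCRC2 and ANXA3. Those called in 0 of 6 were POLH and ABCC3.

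The KO guide 2 line was also set directly against the KO guide 1 line. They differed at 954 genes (6.87%), 337 higher (2.43%) and 617 lower (4.44%) in the KO guide 2 line. By chromosome, the median of KO guide 2 minus KO guide 1 was 0.45 on chromosome 20 and 0.40 on chromosome 21. It was -0.25, -0.29 and -0.40 on chromosomes 2, 3 and 9. The list medians of this difference were 0.37 for renal transcription factors, 0.54 for proximal tubule markers and 0.39 for HNF4A targets, and -0.61 for integrins. They were nearer 0 for collagens (-0.12), NF-kB genes (-0.04), cell cycle genes (-0.03) and crosslinking enzymes (0.12), and -0.42 for epithelial adhesion genes and for unfolded protein response genes. With the replicate block 3426 genes differed, 1485 higher and 1941 lower.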

How the data were processed

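Polyadenylated RNA of the 4 lines was sequenced on an Illumina instrument, per the labels' protocols. The submitters' processing notes name fastp 0.23.2, HISAT2 2.2.1, featureCounts 2.0.1 and DESeq2 2.11.40.8 with the builds hg38 and GRCh38. Strand use in counting is not given in the sources used here, so overlapping and antisense genes, such as PARP9 with DTX3L, are uncertain. The deposited signal was a normalized count on a linear scale. Multiplying each of the authors' columns back gave whole reads for 100% of values above 0 (tolerance 0.001 reads). A gene with at most 3 reads in every library of a group was taken as at the floor. Folds against the floor were taken from the mean of the 4 control libraries for falls and of the KO guide 2 libraries for rises. They are lower bounds for that mean, not for each control line, and cover counting error only.

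limma 3.58.1 in R 4.3.3 (lmFit, eBayes with trend) was fitted to log2(value + 1) over all 8 libraries with 1 mean per line, and p was adjusted by Benjamini-Hochberg over 13883 genes. The code was tested on simulated data. Symbols (27745 of 28395 identifiers), chromosomes, gene order and promoters came from RefSeq, GRCh38.p14. The differences between replicate 2 and replicate 1 correlated across genes at 0.293 to 0.514 in all pairs of lines. As this was above 0.1, the blocked fit took the replicate numbers to pair the libraries. What libraries with the same replicate number shared was not tested. edgeR 4.0.16 and DESeq2 1.42.0 on the recovered reads, other pseudocounts, filters and scalings, and leaving out each library were alternatives.

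The members and the 36 lists were chosen with earlier results of these data known. Named genes were ANXA4, HNF4A, cell type markers, the 15 largest rises and falls by the smaller difference from either control line (mean value of 50 or more, both KO guide 2 libraries beyond all controls), and up to 4 called members per list and direction (mean value of 20 or more). A few members chosen by this rule are not reported here. Members named beyond these complete a list's calls or were chosen after their values were seen.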

Additional observations from a re-analysis of the deposited data

Results flagged for a closer look

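In 10 of the named genes reported here, 1 of the 4 control libraries stood apart from the other 3 by Dixon's criterion, which chance meets in about 1 group in 20. The highest control library stood apart for SMN2 at 19.3, CPVL at 94.0, COL12A1 at 2873, TNFSF4 at 36.3, CENPE at 1591, GAA at 2473 and UQCRC2 at 2113 normalized counts. The lowest stood apart for MAF at 651, CP at 1938 and SCARB2 at 4116.

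MAF, CNN1 and NTN1 were called in opposite directions against both control lines in the lines labelled KO guide 2 and KO guide 1, and the direct difference between those lines was called as well. KO guide 2 minus KO guide 1 was 1.26 for MAF, 4.94 for CNN1 and -3.998 for NTN1 on the log2(value + 1) scale, with limma adjusted p of 0.00345, 0.000443 and 7.83e-05. Both libraries of the KO guide 2 line were above both libraries of the KO guide 1 line for MAF and CNN1, and below them for NTN1.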

How the results depend on the processing

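Against the 1561 genes called with limma, pseudocounts, filters, scalings and count tests gave 1361 to 1821, and the 6 libraries alone gave 1113. Leaving out a library gave 811 to 1354 genes, most of the change falling on control line 1 and the KO guide 2 line. Line means gave 3 genes and an estimated correlation within lines (-0.12) gave 801. After removal of gene-order windows the counts were 788 against both control lines, 208 against each control line, 373 against the KO guide 1 line and 139 between the control lines, and without chromosomes 2, 3, 8, 9 and 16 it was 806. With the replicate block, the counts in the same order were 3769, 1744, 3426 and 1758, and the block lost none of the 1561 calls. ANXA4 turned from -0.10 to 0.35 after removal of windows and lay between -0.30 and 0.10 when a library was left out (0.036 without replicate 1 of the KO guide 2 line). HNF4A kept 3.14 with line means, at an adjusted p of 0.291.

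Of 161 other named genes, 156 were called, and 4 changed sign: PARP9 (0.25), DTX3L (0.076) and NDUFB5 (0.081) after removal of windows, and CDH6, which lay between -0.62 and 0.028 with a library left out, the highest without replicate 2 of control line 2. Line means ended the call of 153, an estimated correlation of 53, removal of windows of 42, the 6 libraries alone of 29, no filter of 17, and leaving out a library of 22 to 65, the most without replicate 1 of the KO guide 2 line. Some list medians changed sign. After removal of windows these were EGF family (-0.12), interleukins and chemokines (-0.061) and interferon-stimulated genes (0.046). Outside the 5 chromosomes they were HIF targets (0.046), NRF2 targets (0.041) and endothelial markers (0.50, from -0.67, with 1 gene left). A filter at 50 gave -0.11 for interleukins and -0.18 for complement genes, and equal totals gave -0.0085 for interleukins. With a library left out, medians lay as follows: interleukins between -0.090 and 0.19, complement genes between -0.36 and 0.23, interferon genes between -0.11 and 0.048, HLA class I between -0.087 and 0.33, HIF targets between -0.10 and 0.0069, unfolded protein response genes between -0.031 and 0.21, NRF2 targets between -0.058 and 0.086, mitochondrially encoded genes between -0.29 and 0.90, other annexins between -0.084 and 0.14 and proteases between -0.33 and 0.025. The causes were not tested. Depth limits genes near 3 reads, such as ZNF486 in the controls.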

Other observations

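Zinc finger genes of chromosome 19 are a set looked at after ZNF486 and ZNF708 had been seen among the rises. Of 147 tested ZNF genes on chromosome 19, 21 were called higher (14.3%) and 1 lower, with a median of 0.23, and 113 had a positive difference. The other 766 tested genes of chromosome 19 gave 24 higher (3.13%) and 18 lower, with a median of 0.06. The 241 tested ZNF genes of other chromosomes gave 4 higher and 8 lower, with a median of 0.02. For the ZNF genes of chromosome 19 the median was 0.37 against control line 1 and 0.12 against control line 2, and 0.17 against the KO guide 1 line, while control line 2 exceeded control line 1 by 0.17. ZNF708 stood at 0.28 normalized counts on average in the controls, 7.55 in the KO guide 1 line and 13.0 in the KO guide 2 line. ZNF845, on the same chromosome, went the other way, from 7.34 in the controls to 0 reads. Genes of this family have similar repeats, so reads can be shared between members. No test of the set was made.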
